A study of Mus musculus with 6 samples.

Results

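Gene expression was compared between B cell progenitors of IkB-deficient mice and of wild-type mice of 100 weeks. The bone-marrow cells had been sorted as B220+ cells negative for IgM, IgD, CD49b, Gr-1, F4/80, CD11b, CD8a and CD3e, a gate for B progenitors without a surface B cell receptor. A 10x 5' assay had counted their transcripts, and a V(D)J assay on the same cells had sequenced their rearranged antigen receptor chains. The IkB-deficient mice were C57BL/6, 12 weeks old and nfkbie-/-nfkbib-/-nfkbia+/-, that is without Nfkbie and Nfkbib and with 1 working copy of Nfkbia. The labels name no cell-type-restricted driver of this loss. The other mice were wild-type C57BL/6 of 100 weeks, and a library of wild-type C57BL/6 mice of 12 weeks is set beside both as values only. In every group 2 mice had been pooled into 1 gene-expression library and 1 V(D)J library. Genotype, age, sex and library therefore cannot be told apart here, no test between groups was possible, and the 95% intervals given cover counting error only.

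Cells with at least 500 UMIs (unique molecular identifiers, which count captured transcripts), at least 300 genes, at most 10% mitochondrial UMIs and at least 1 UMI of Cd79a, a signalling chain of the B cell receptor, were kept. They were divided by whether a productive heavy-chain (IGH) contig had been recovered, and by the summed UMIs of the division genes Mki67, Top2a, Cdk1 and Birc5. Cells with 0 such UMIs are called resting and cells with at least 2 cycling, and those with 1 were left out. This gave 13699 of the 17818 called cells of both libraries, 7108 IkB-deficient and 6591 aged, out of 27465 cells in the whole series. Raw UMIs were summed over the cells of each library and stratum and scaled to counts per 1000000 UMIs (CPM), with antigen receptor genes kept out of the total. Cells without a productive heavy-chain contig include those without any contig: 98.1% of IkB-deficient but 75.9% of aged heavy-chain-negative resting cells appeared in the V(D)J table.

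NF-kB is a family of paired transcription factors built from Rela, Relb, Rel and the products of Nfkb1 and Nfkb2. The IkB proteins, encoded by Nfkbia, Nfkbib and Nfkbie, bind these pairs and hold them in the cytoplasm until a signal has them degraded, and NF-kB in turn switches on several of its own subunits and inhibitors. In the B lineage the pathway is best known for survival, for organ-forming lymphotoxin signals and for antigen presentation by mature B cells, whereas progenitors pass from heavy-chain to light-chain rearrangement under interleukin-7 and pre-B cell receptor signals.

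The 2 libraries differed in which progenitors they held. Of the Cd79a-positive cells, 48.4% (interval 47.2 to 49.5) of the IkB-deficient library and 25.5% (24.4 to 26.5) of the aged library were heavy-chain-negative and resting. Heavy-chain-negative cycling cells made up 29.9% (28.9 to 30.9) and 10.99% (10.3 to 11.8). The heavy-chain-positive strata were smaller in the IkB-deficient library, at 9.04% against 39.0% for resting cells and 4.08% against 19.2% for cycling ones. The number of division-gene UMIs depends on depth, and after each cell was thinned to 2000 UMIs the shares in the same order of strata were 57.8%, 20.5%, 10.2% and 2.86% in the IkB-deficient library and 27.9%, 7.70%, 40.6% and 16.1% in the aged one. In both settings the young wild-type library lay further from the IkB-deficient library than the aged library did in every stratum.

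**Figure D1:**
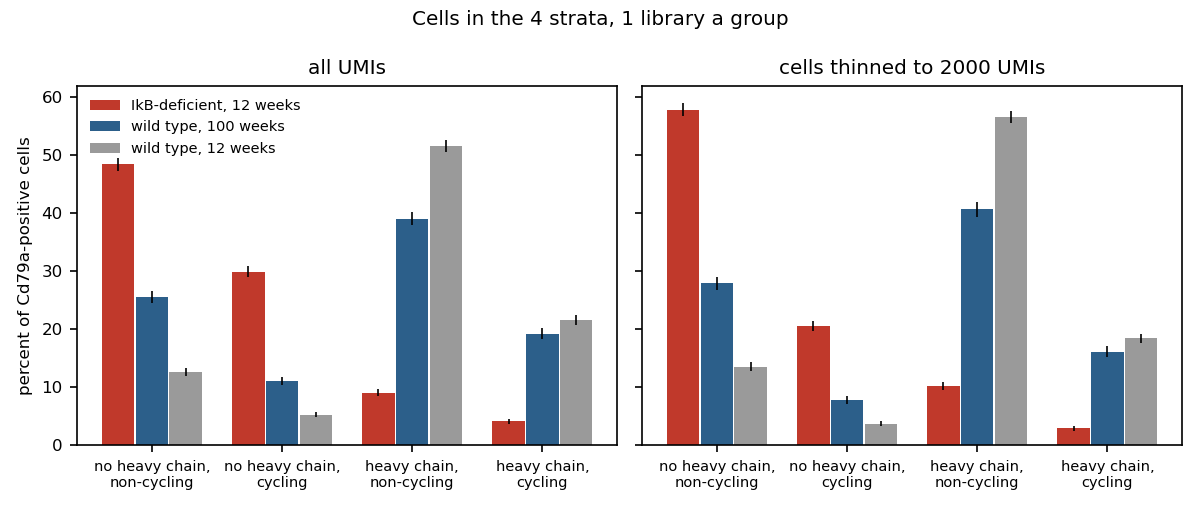
Share of Cd79a-positive cells (percent, vertical axis) in each of 4 strata, by library, with all UMIs (left) and with cells thinned to 2000 UMIs (right). Bars are shares of 1 library and lines are exact Clopper-Pearson 95% intervals; heavy-chain-negative cells are 48.4% and 29.9% of the IkB-deficient library, and heavy-chain-positive resting cells are 39.0% of the aged one.

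The strata rested on 3762, 2326, 703 and 317 IkB-deficient cells and on 1772, 765, 2717 and 1337 aged cells (heavy-chain-negative resting, heavy-chain-negative cycling, heavy-chain-positive resting, heavy-chain-positive cycling). Median depth was 5320, 12748.5, 3322 and 10326 UMIs per cell in the IkB-deficient strata and 3852.5, 12183, 2825 and 9024 in the aged ones. All 9 B-lineage markers were present in every stratum of both libraries. The IkB-deficient pool held Xist in every stratum and Y-linked UMIs without Xist in only 1 cell, whereas the aged pool held both kinds of cell, for example 327 with Xist only and 831 with Y-linked UMIs only among heavy-chain-negative resting cells, so the pools also differed in sex. The young wild-type pool held 0 cells with Xist only and 699, 363, 2767 and 1414 with Y-linked UMIs only in the 4 strata. The young values set beside the IkB-deficient ones therefore differ in sex as well as genotype and library. The barcodes of 96 cells occurred in both libraries. High-scoring doublets, which were left in, made up 12.7% of IkB-deficient and 6.27% of aged heavy-chain-negative cycling cells and 22.1% and 13.2% of heavy-chain-positive cycling ones.

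The targeted genes were read first. Nfkbie (ENSMUSG00000023947, mm10 chromosome 17, 45555700 to 45563169), which encodes IkB epsilon, stood at 2.86 CPM in IkB-deficient, 146 in aged and 160.0 in young heavy-chain-negative resting cells. It was near absent in the IkB-deficient library and alike in the wild types, a difference of 51-fold (interval 39.4 to 67.2) in favour of the aged cells. The aged level was 18.9-fold (interval 14.8 to 24.3) that of IkB-deficient cells in heavy-chain-negative cycling cells and 36-fold (interval 21 to 67.8) in heavy-chain-positive resting cells, and the gene was under the expression minimum in heavy-chain-positive cycling cells. A Nfkbie UMI was found in 1.59% of IkB-deficient and 42.3% of aged heavy-chain-negative resting cells.

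Nfkbib (ENSMUSG00000030595, chromosome 7, 28758251 to 28766644), which encodes IkB beta, was lower in all 4 strata but not absent. Its level was 24.3 CPM against 45.5 in heavy-chain-negative resting cells, 13.6 against 41.3 in the cycling ones, and 31.8 against 72.4 and 19.4 against 50.7 in heavy-chain-positive resting and cycling cells. The aged level was between 1.88-fold (interval 1.63 to 2.15) and 3.05-fold (interval 2.65 to 3.5) that of the IkB-deficient one. Reads of this assay come from the 5' end, and the deleted part of each gene is not given in the sources used here, so UMIs from outside it cannot be told apart from intact transcripts.

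Nfkbia (ENSMUSG00000021025, chromosome 12, 55489409 to 55492647) encodes IkB alpha and is itself a classical NF-kB target. With 1 working copy it was higher in IkB-deficient heavy-chain-negative cells, at 352 against 277 CPM in resting and 159 against 110.1 in cycling cells. In heavy-chain-positive cells the order turned, with 491 against 899 CPM in resting and 222 against 330.1 in cycling cells. The log2 ratios (with 5 CPM added to each side) were 0.34, 0.51, -0.86 and -0.56, so none reached 2-fold. The remaining list members Bcl3, Nfkbiz and Nfkbid encode nuclear IkB-like proteins. Bcl3 was 6.32-fold (interval 5.12 to 7.89) higher in heavy-chain-negative resting cells (75.9 against 12 CPM) and 2.73-fold (interval 2.31 to 3.22) higher in heavy-chain-positive resting cells.

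Few genes differed by 2-fold between the libraries. A gene counted as measured at a mean of at least 20 CPM over both libraries and as called at a log2 ratio of at least 1 in size. Among heavy-chain-negative resting cells 138 of 6014 measured genes were higher in the IkB-deficient library and 99 lower, 3.94% in all (2.29% higher and 1.65% lower). The numbers were 67 and 29 of 5645 in heavy-chain-negative cycling cells (1.70%, of which 1.19% higher and 0.514% lower), 180 and 90 of 5906 in heavy-chain-positive resting cells (4.57%, of which 3.05% higher and 1.52% lower), and 93 and 38 of 5602 in heavy-chain-positive cycling cells (2.34%, of which 1.66% higher and 0.678% lower). Higher genes were thus the larger group in each stratum. With aged cells that carried Xist and no Y-linked UMI as the only reference, heavy-chain-negative resting cells had 133 higher and 146 lower genes. Of 4808 genes measured in all 4 strata, 38 were higher by 2-fold in every one and 5 lower.

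**Figure D2:**
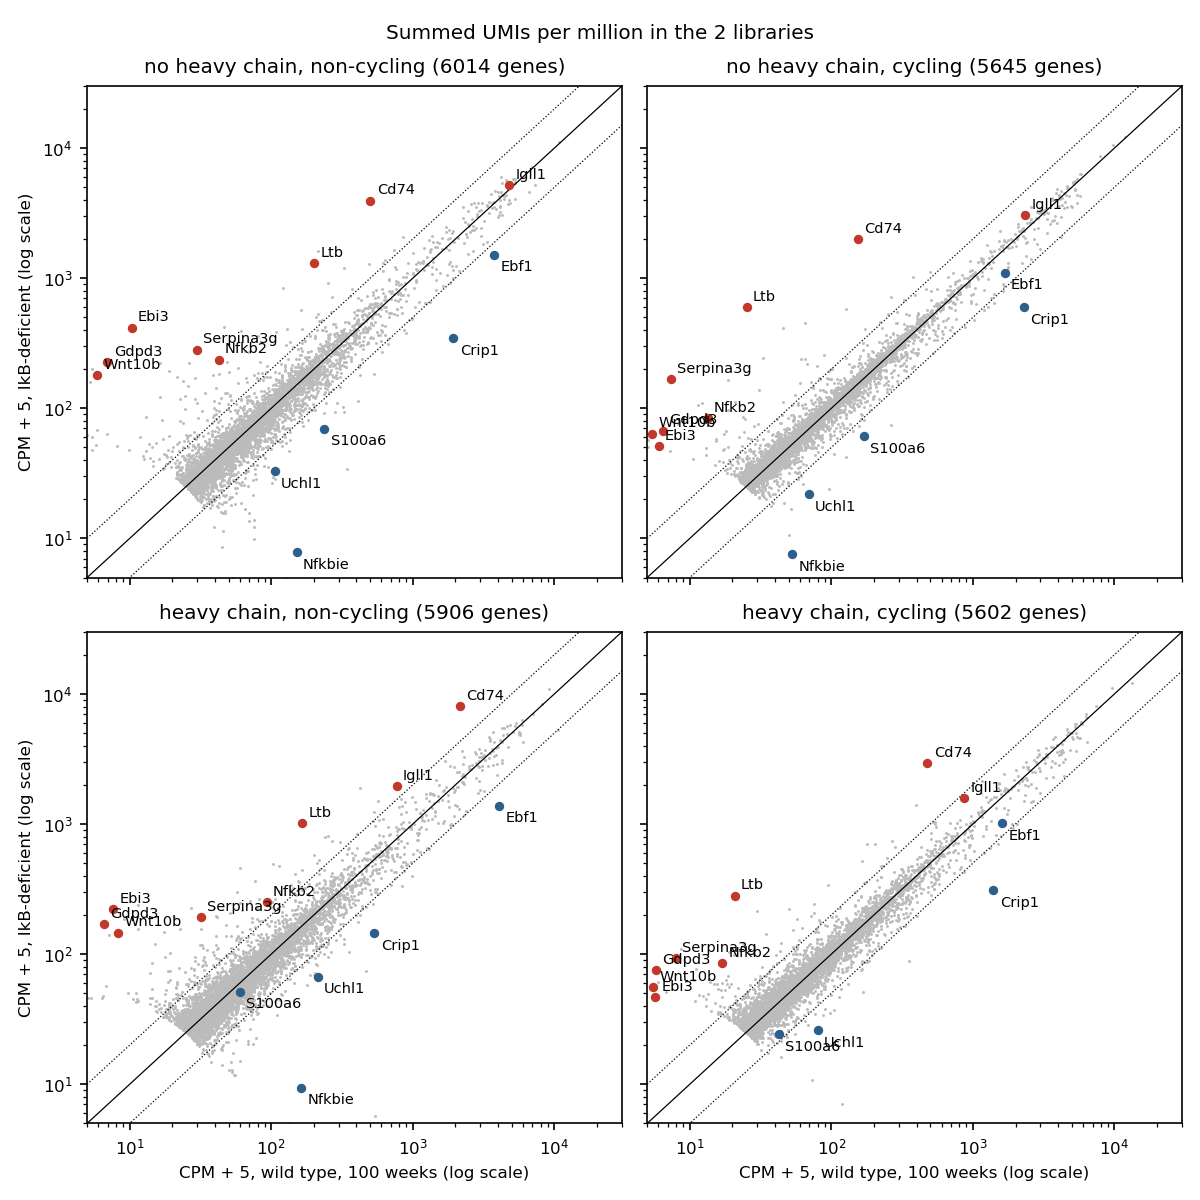
Level of each measured gene in the aged library (horizontal axis, CPM + 5, log scale) against the IkB-deficient library (vertical axis, CPM + 5, log scale) in the 4 strata. The full line marks equal levels and the dotted lines 2-fold; 13 genes named in the text are coloured, red where higher and blue where lower in the IkB-deficient library, and Ltb, Ebi3, Wnt10b, Gdpd3, Cd74 and Serpina3g lie above the upper dotted line in each panel.

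NF-kB subunit genes did not move as a block. Nfkb2 (chromosome 19, 46300994 to 46312400), which encodes the p100 precursor of the alternative pathway, stood at 232 CPM in IkB-deficient, 37.6 in aged and 37.5 in young heavy-chain-negative resting cells, 6.17-fold (interval 5.48 to 6.97) above the aged level. The difference was 9.43-fold (interval 7.58 to 11.9) in heavy-chain-negative cycling, 2.8-fold (interval 2.53 to 3.1) in heavy-chain-positive resting and 6.68-fold (interval 5.52 to 8.1) in heavy-chain-positive cycling cells. Relb, the partner of the processed Nfkb2 product, was 104 against 37.7 CPM, 42.6 against 12.1, 113 against 78.5 and 46.8 against 20.7 over the strata in the same order. Nfkb1 and Rel, which encode p50 and c-Rel, stayed under 2-fold in all strata, with log2 ratios of -0.36 to 0.30 for Nfkb1 and 0.04 to 0.29 for Rel.

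Rela, which encodes p65, was also higher by 2-fold in every stratum, but there the aged library was the one that stood apart. Its level in heavy-chain-negative resting cells was 45.3 CPM in IkB-deficient, 15.3 in aged and 54.4 in young cells, and in heavy-chain-positive resting cells 55.9, 16.7 and 56.7. The young wild type thus lay beside or above the IkB-deficient library. Over the 5 subunits the median log2 ratio was 1.31, 1.09, 0.496 and 1.01 in the 4 strata, with 3, 3, 2 and 3 members past 2-fold. In both heavy-chain-negative strata that median was the ratio of Rela itself, and Rela was among the members past 2-fold in all 4 strata. The medians therefore rest in part on the low aged level of Rela.

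**Figure D3:**
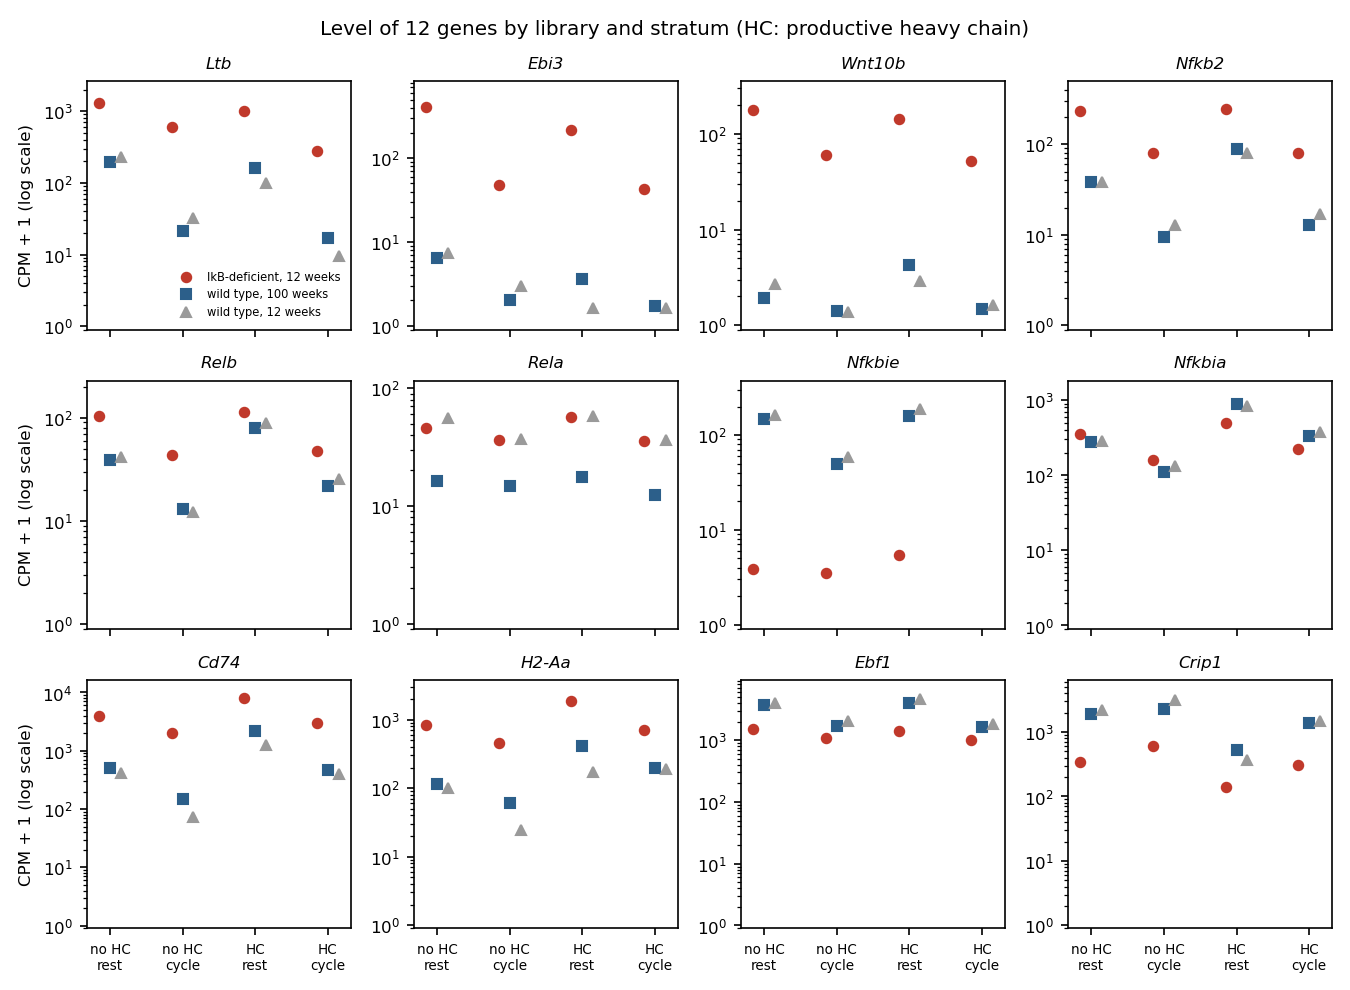
Level of 12 genes (vertical axes, CPM + 1, log scale) in the 4 strata (HC: productive heavy chain; rest: resting; cycle: cycling) in the IkB-deficient (circles), 100-week (squares) and 12-week (triangles) libraries, 1 point per library. For Nfkb2, Relb, Ltb, Ebi3 and Wnt10b the wild-type libraries lie together under the IkB-deficient one, for Rela the 100-week library lies alone at the bottom, and Nfkbie has no point in heavy-chain-positive cycling cells, where it was not measured.

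Of 29 genes listed as NF-kB targets, 19, 16, 20 and 13 were measured in the 4 strata, and 11, 6, 11 and 6 of them were higher by 2-fold. A single member was lower by 2-fold, the survival gene Bcl2l1 in heavy-chain-positive resting cells (64 against 183 CPM). Among all measured genes the shares higher by 2-fold were 2.29%, 1.19%, 3.05% and 1.66% in the 4 strata. The median log2 ratio of the list was 1.07, 0.78, 1.02 and 0.71, beside -0.02, 0.05, -0.02 and 0.05 over all measured genes. Over all the processing alternatives tried, the heavy-chain-negative resting median lay between 0.745 and 1.815. In heavy-chain-positive cycling cells it was under 0.5, the size called higher for a list, with aged cells limited to those with Xist only (0.372), without cells of mature B markers (0.377), after thinning (0.492) and with each cell weighted alike (0.489).

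Ltb (ENSMUSG00000024399, chromosome 17, 35194507 to 35196305) encodes lymphotoxin beta, a membrane cytokine of lymphoid organ formation. It stood at 1296 CPM in IkB-deficient, 196 in aged and 226 in young heavy-chain-negative resting cells, a difference of 6.6-fold (interval 6.27 to 6.96) from the aged cells. In cycling cells the wild-type levels were far lower while the IkB-deficient level stayed above them, with 594 against 20.3 CPM without and 277 against 15.8 with a heavy chain, or 29.3-fold (interval 25.5 to 33.9) and 17.5-fold (interval 15.2 to 20.3). A Ltb UMI was present in 93.5% of IkB-deficient and 37.5% of aged heavy-chain-negative resting cells. In NK or innate lymphoid-like cells of the same libraries, which make Ltb themselves, the shares were 65.1% and 56.5%.

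Ebi3 (chromosome 17, 55952623 to 55957022) encodes the beta subunit shared by interleukin-27 and interleukin-35. It was at 411 CPM in IkB-deficient against 5.35 in aged and 6.46 in young heavy-chain-negative resting cells, 76.9-fold (interval 56.6 to 107) above the aged level, and at 218 against 2.61 in heavy-chain-positive resting cells. The wild types were both near the bottom of the scale. An Ebi3 UMI was found in 54.7% of IkB-deficient and 2.09% of aged heavy-chain-negative resting cells (36.2% and 0.525% after thinning). The share was 14.9% and 11.5% in NK or innate lymphoid-like cells, which serve here as a reference for RNA that is not of B-lineage origin and had median depths of 7944 and 6387 UMIs over 241 and 191 cells.

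Receptors and survival genes of the list followed. Cd40, the receptor for T cell help, was at 219.7 against 21.4 CPM in heavy-chain-negative resting cells, at 41.9 against 2.23 in the cycling ones and at 213 against 57 in heavy-chain-positive resting cells. Birc3, an inhibitor of apoptosis that also restrains the alternative pathway, was 4.69-fold (interval 4.31 to 5.11) higher in heavy-chain-negative resting and 2.3-fold (interval 2.11 to 2.5) higher in heavy-chain-positive resting cells. Cd69, an early activation antigen that keeps lymphocytes in tissue, was 2.17-fold (interval 2.1 to 2.23) higher in heavy-chain-negative resting and 3.22-fold (interval 3.03 to 3.42) higher in heavy-chain-positive cycling cells. Icam1, an adhesion molecule, and Irf1, an interferon-regulated factor, were 2.37-fold (interval 2.09 to 2.71) and 2.13-fold (interval 1.99 to 2.28) higher in heavy-chain-negative resting cells. Fas, the death receptor, was measured in heavy-chain-positive resting cells at 39.9 against 5.56 CPM, and Ccr7, which guides lymphocytes to lymph nodes, stood at 74.4 against 17.6 in heavy-chain-negative resting cells.

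Other members differed less or in part of the strata. Tnfaip3, which encodes the feedback inhibitor A20, passed 2-fold in heavy-chain-positive cells only (151 against 66.3 CPM in resting cells), and in heavy-chain-negative resting cells it was at 110.4 against 63. Junb, of the AP-1 family, was at 301 against 351 CPM in heavy-chain-negative resting cells, a log2 ratio of -0.22. Slfn2, a regulator of lymphocyte quiescence, was 3.76-fold (interval 3.39 to 4.17) higher in heavy-chain-negative resting cells and slightly lower in heavy-chain-positive resting cells (192 against 232 CPM). In the TNF receptor and TRAF list Cd40 and Birc3 were the 2 members past 2-fold of 13 in heavy-chain-negative resting cells, while the BAFF receptor gene Tnfrsf13c was at 159 against 103 CPM and the kinase gene Ikbkb at 71.4 against 72.3. The adaptor gene Traf5 was lower in heavy-chain-positive resting cells, 39.6 against 110.2 CPM.

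**Figure D4:**
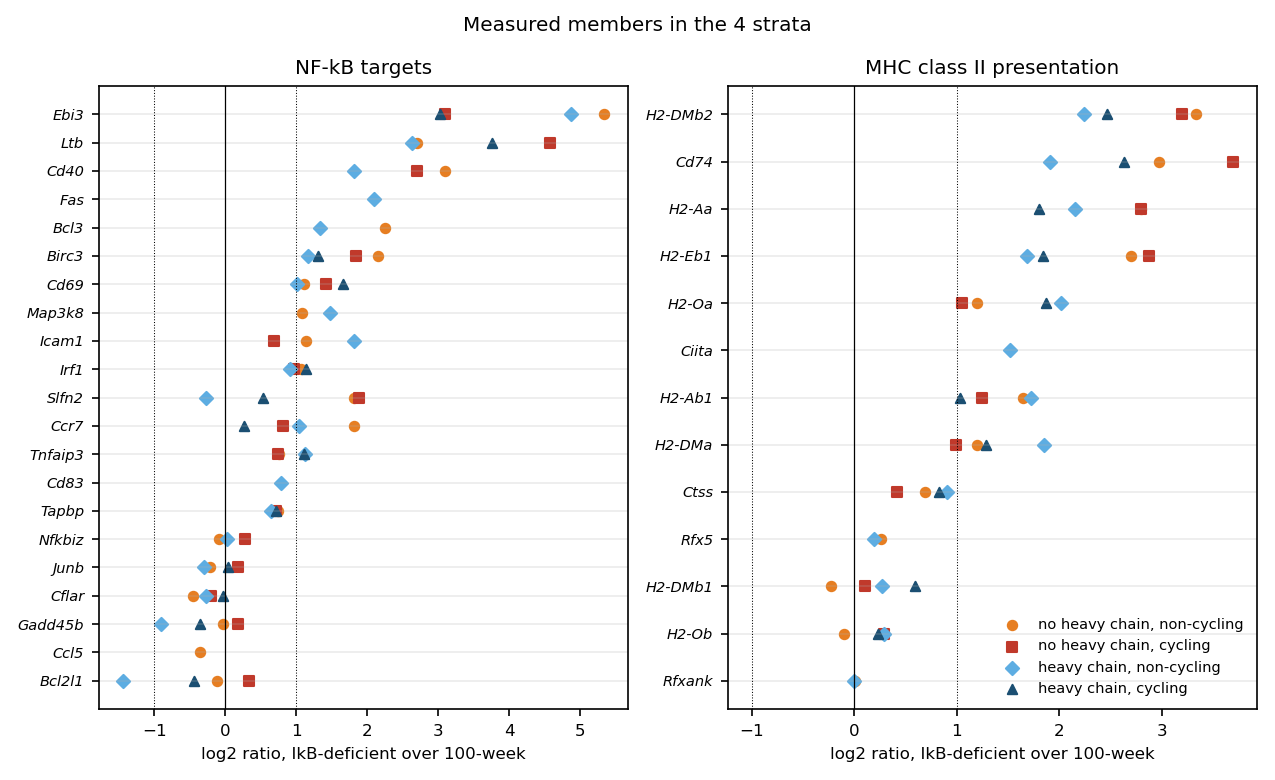
Log2 ratio (horizontal axis, IkB-deficient over 100-week, 5 CPM added) of each measured member of the NF-kB target list (left) and of the MHC class II list (right) in the 4 strata, 1 point per stratum. Dotted lines mark 2-fold; Ebi3, Ltb and Birc3 on the left, and H2-DMb2, Cd74, H2-Aa and H2-Eb1 on the right, lie past it in all 4 strata, whereas Junb, Cflar, H2-DMb1 and H2-Ob lie between the dotted lines.

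The windows of 250 bases before the RefSeq start sites (GRCm38.p6, the same assembly as mm10) were searched on both strands for GGGA followed by any 4 bases and CC, a core of the kB element bound by NF-kB. Of the 38 genes higher by 2-fold in all strata, 32 had a window and 13 of these held a match (40.6%), beside 5317 of 27025 genes of the table (19.7%). Of the 12 genes with the largest smallest ratio over the strata, 11 had a window and 5 of these held a match. Of the 12 lowest by the same rule 0 of 8 did. In the NF-kB target list 7 of 22 genes with a window held a match (31.8%), and in the MHC class II list 3 of 11 (27.3%). The table was not limited to measured genes, and a gene with several start sites counted if any of its windows matched. The ranked genes were picked by their ratios, and the lists were chosen with earlier results of these data known. The motif was chosen after the values were seen, so these shares are no test of enrichment. The windows of Ltb, Ebi3 and Nfkb2 are printed because these NF-kB pathway genes, a ligand, a cytokine chain and a subunit, were higher by 2-fold in every stratum and hold a match, with the matches in capitals, 5' to 3' on the strand of the gene (chr17:35194257-35194506, chr17:55952373-55952622 and chr19:46304487-46304736, all plus strand). A match is a description of the letters and not evidence of binding.
Ltb: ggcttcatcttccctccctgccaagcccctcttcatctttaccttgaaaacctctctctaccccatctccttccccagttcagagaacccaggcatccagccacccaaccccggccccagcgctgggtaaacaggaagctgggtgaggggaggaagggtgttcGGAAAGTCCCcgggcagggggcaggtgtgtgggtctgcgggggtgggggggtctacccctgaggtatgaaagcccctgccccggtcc
Ebi3: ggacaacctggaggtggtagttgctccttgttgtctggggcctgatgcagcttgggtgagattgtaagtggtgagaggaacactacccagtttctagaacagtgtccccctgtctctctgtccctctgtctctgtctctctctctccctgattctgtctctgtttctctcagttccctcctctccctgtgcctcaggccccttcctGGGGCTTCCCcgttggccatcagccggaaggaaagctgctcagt
Nfkb2: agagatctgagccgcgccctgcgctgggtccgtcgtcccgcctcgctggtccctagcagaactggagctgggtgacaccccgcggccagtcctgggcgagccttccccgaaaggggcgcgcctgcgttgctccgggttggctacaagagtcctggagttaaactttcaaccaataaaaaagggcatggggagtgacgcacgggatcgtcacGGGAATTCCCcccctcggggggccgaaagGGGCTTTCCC
Counted from the start site, the match in Ltb begins 87 bases before it and that in Ebi3 44 bases before it. Nfkb2 held 2 matches, at 39 and 10 bases before the start used, which lies inside the annotated span of the gene given above. The match in Ltb, that in Ebi3 and the second one in Nfkb2 have the searched letters on the opposite strand.

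Genes of MHC class II antigen presentation were higher as a group. Of 15 listed, 12, 10, 13 and 10 were measured, and 7, 6, 8 and 7 were higher by 2-fold and 0 lower, with list medians of 1.20, 1.15, 1.68 and 1.55. The shares of all measured genes higher by 2-fold were 2.29%, 1.19%, 3.05% and 1.66% in these strata. Their medians were -0.02, 0.05, -0.02 and 0.05. Cd74, the invariant chain that guides class II molecules, was at 3938 CPM in IkB-deficient, 497 in aged and 407 in young heavy-chain-negative resting cells. The difference from aged cells was 7.93-fold (interval 7.67 to 8.19) there, 13.4-fold (interval 12.7 to 14.1) in heavy-chain-negative cycling, 3.77-fold (interval 3.7 to 3.84) in heavy-chain-positive resting and 6.24-fold (interval 6.06 to 6.43) in heavy-chain-positive cycling cells. Cd74 UMIs were found in 94.2% of IkB-deficient and 18.4% of aged heavy-chain-negative resting cells. The NK or innate lymphoid-like reference held them in 76.8% and 55.5% of cells.

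The class II chains themselves followed Cd74. H2-Aa (chromosome 17, 34282744 to 34287823), the alpha chain of I-A, stood at 833 CPM in IkB-deficient, 116 in aged and 99 in young heavy-chain-negative resting cells, and at 1874, 418 and 168 in heavy-chain-positive resting cells. Aged heavy-chain-positive resting cells thus lay between the young and the IkB-deficient ones. H2-Ab1, the beta chain of I-A, was 3.22-fold (interval 3.01 to 3.45) higher, and H2-Eb1, the beta chain of I-E, 6.99-fold (interval 6.34 to 7.72) higher in heavy-chain-negative resting cells. Among the genes that edit the bound peptide, H2-DMb2 stood at 188 against 14.1 CPM, H2-DMa at 208 against 88 and H2-Oa at 181 against 75.9.

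Not every class II gene took part. H2-DMb1, a near copy of H2-DMb2 with which it can share reads, was at 33.8 against 40.4 CPM in heavy-chain-negative resting cells, and H2-Ob, the partner of H2-Oa, at 222 against 239. Ciita, the master coactivator of class II genes, was measured in heavy-chain-positive resting cells alone, at 38.9 against 10.3 CPM. Class II genes also mark mature B cells and dendritic cells. Cells with a UMI of Fcer2a, Fcmr, Cr2 or Ighd, markers of immature and mature B cells, made up 38.6% of IkB-deficient and 15.1% of aged heavy-chain-negative resting cells and 54.6% and 34.6% of heavy-chain-positive resting ones. The 8 immature or mature B markers summed to 684 to 2638 CPM over the IkB-deficient strata and 305 to 905 over the aged ones, H2-Aa included. Of the conventional dendritic markers Xcr1 was at 0 in both IkB-deficient resting strata and Batf3 in the heavy-chain-positive one, and that list summed to 485 to 1899.7 CPM against 100.4 to 434, most of it H2-Aa. The 9 plasmacytoid dendritic markers summed to 609 against 640 and 264 against 288 CPM in heavy-chain-negative resting and cycling cells. In heavy-chain-positive resting and cycling cells they were higher, at 531 against 297 and 304 against 151 CPM. What such cells add to the class II levels was not tested. With all cells that held a Fcer2a, Fcmr, Cr2 or Ighd UMI left out, the lowest of the 4 class II medians was 0.996.

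Many class II promoters carry a Y box, an inverted CCAAT sequence bound by NF-Y. The letters CTGATTGG, searched on both strands of the same windows, occurred in 4 of 11 class II genes with a window (H2-Aa, H2-Eb1, H2-Eb2 and H2-Oa, 36.4%) and in 1198 of 27025 genes of the table (4.43%). Here too the table was not limited to measured genes, and enrichment was not tested. The window of H2-Aa (chr17:34287824-34288073, minus strand, printed 5' to 3' on the strand of the gene) is shown because this chain is discussed above, with the match, which begins 51 bases before the start site, in capitals. This window also holds a match to the kB core searched above, which is left in small letters.
H2-Aa: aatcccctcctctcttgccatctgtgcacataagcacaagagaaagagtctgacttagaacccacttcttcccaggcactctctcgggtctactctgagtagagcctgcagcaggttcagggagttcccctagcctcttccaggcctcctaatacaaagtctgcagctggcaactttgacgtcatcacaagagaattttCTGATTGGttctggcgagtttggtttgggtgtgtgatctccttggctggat

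MHC class I genes shifted less but almost all in one direction. Of 19 genes measured, 18 were above 0 in each stratum, 2, 0, 2 and 1 passed 2-fold, and the medians were 0.50, 0.43, 0.70 and 0.52. Of all measured genes, 46.1%, 61.2%, 47.6% and 58.9% were above 0 in the same order of strata. B2m, the common light chain, was at 3283 against 2449.9 CPM in heavy-chain-negative resting and 2764 against 1835 in heavy-chain-positive resting cells. The classical heavy chain H2-K1 was 1.43-fold (interval 1.41 to 1.46) and 1.86-fold (interval 1.81 to 1.91) higher in heavy-chain-negative resting and heavy-chain-positive cycling cells, while H2-D1 was 1.05-fold (interval 1.04 to 1.07) higher in the former. H2-Q7, a nonclassical class I gene with near copies that can share reads, was 2.06-fold (interval 1.98 to 2.15) higher. Tapbp, the tapasin gene of peptide loading, was at 272 against 160.3 CPM.

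Interferon-response genes as a list were not higher in heavy-chain-negative resting cells, where the median of 21 was -0.07, and their median was 0.13, 0.38 and 0.78 in the other strata. Single members differed strongly. Gbp2, an interferon-inducible GTPase, was at 268 CPM in IkB-deficient, 59.9 in aged and 50.4 in young heavy-chain-negative resting cells and 11.5-fold (interval 9.33 to 14.4) higher than in aged cells among heavy-chain-positive resting ones. Ifi47, of the immunity-related GTPases, was 2.43-fold (interval 2.28 to 2.6) and 2.39-fold (interval 2.16 to 2.65) higher in the resting strata. Ifi27l2a, an interferon-inducible mitochondrial protein gene, went the other way, with 89.3 against 275 CPM in heavy-chain-negative resting and 69.1 against 459.7 in heavy-chain-positive resting cells, where the young level was 643.

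**Figure D5:**
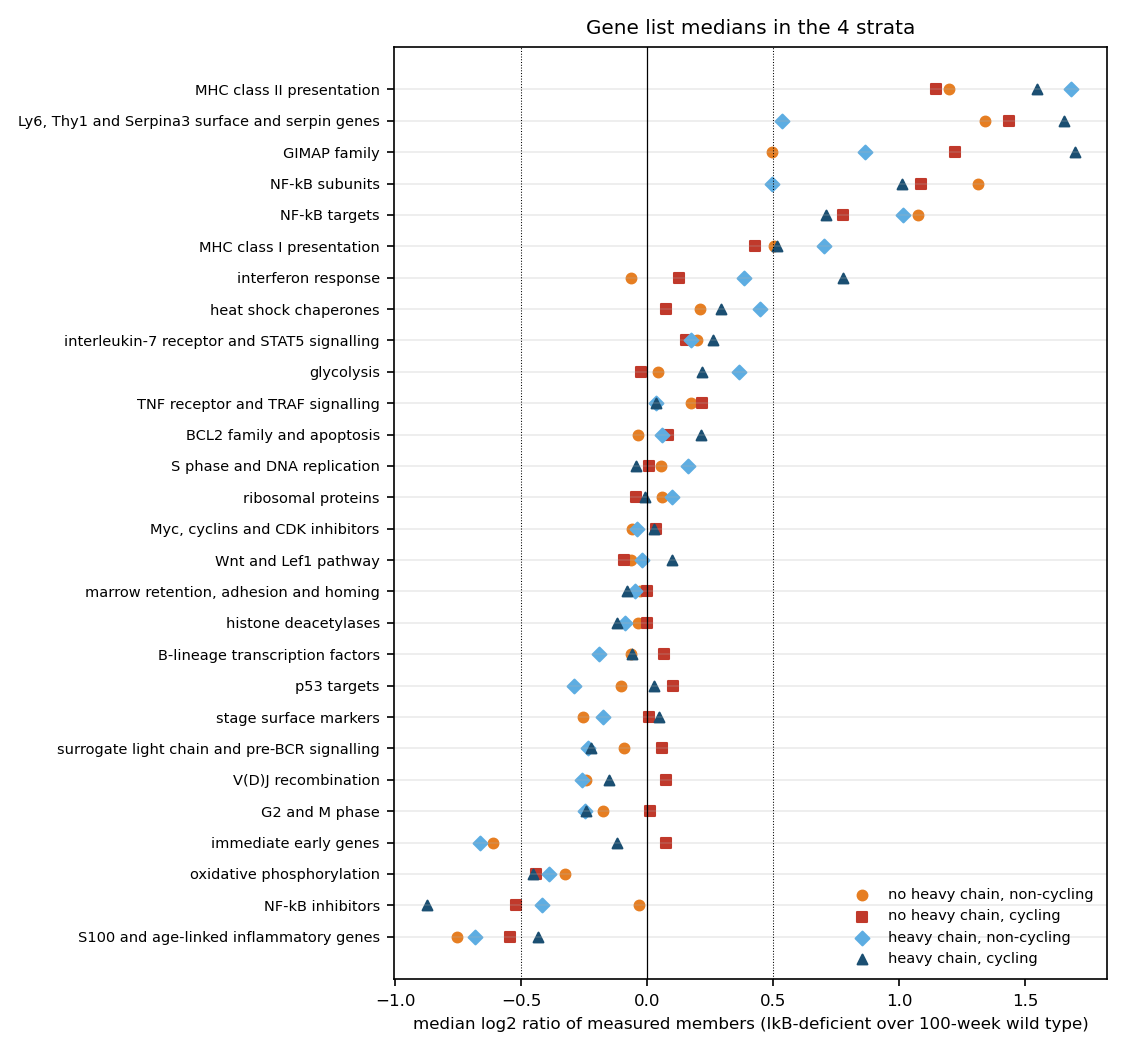
Median log2 ratio (horizontal axis, IkB-deficient over 100-week, 5 CPM added) of the measured members of each gene list (rows, ordered by their mean) in the 4 strata, 1 point per stratum. Dotted lines mark 0.5 in size; MHC class II and NF-kB target lists lie to the right in all 4 strata at 1.15 to 1.68 and 0.71 to 1.07, most lists lie near 0, and the S100 list lies to the left.

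Serine protease inhibitor genes of the Serpina3 cluster on chromosome 12 were higher by 2-fold in every stratum. Serpina3g stood at 277 CPM in IkB-deficient, 24.8 in aged and 15.2 in young heavy-chain-negative resting cells, and at 163 against 2.33 in the cycling ones. Serpina3f was at 265, 64.7 and 25.6 CPM in heavy-chain-negative resting cells, so the aged level lay above the young one. The pair are near copies that can share reads, which makes their separate values uncertain. Ly6a, which encodes Sca-1, was 2.84-fold (interval 2.61 to 3.1) and 4.21-fold (interval 3.86 to 4.59) higher in heavy-chain-negative resting and cycling cells, and Thy1, another lymphoid surface antigen, 5.54-fold (interval 4.32 to 7.2) and 3.93-fold (interval 3.39 to 4.57). Ly6e was at 3452 against 3618 CPM in resting cells. The list of Ly6, Thy1 and Serpina3 genes had medians of 1.34, 1.44, 0.54 and 1.65, and the first of these was 0.253 when the aged cells were limited to those with Xist only and 0.291 without the Cd79a minimum.

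GIMAP genes, which encode GTPases of lymphocyte survival, were higher mostly outside heavy-chain-negative resting cells, with medians of 0.495, 1.22, 0.86 and 1.70. Gimap7 stood at 167 against 23.9 CPM in heavy-chain-negative resting and 106 against 15.9 in the cycling cells. Gimap4 was at 442 against 269 CPM in heavy-chain-negative resting cells, with 122 in the young library, and at 116 against 18.8 in heavy-chain-positive cycling cells, with 3.68 in the young. For Gimap4 the aged level thus lay between the others in both strata.

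Wnt10b (chromosome 15, 98770712 to 98778206), a secreted Wnt ligand, had one of the clearest differences. It was at 176 CPM in IkB-deficient, 0.913 in aged and 1.67 in young heavy-chain-negative resting cells, and at 142, 3.29 and 1.92 in heavy-chain-positive resting cells. The fold over the aged level was 193-fold (interval 93.4 to 479) and 43-fold (interval 29.5 to 65.1). A Wnt10b UMI was found in 53.1% of IkB-deficient and 0.339% of aged heavy-chain-negative resting cells, and in 1.66% and 2.62% of the NK or innate lymphoid-like reference, so the share in IkB-deficient B progenitors was far above that reference. Lef1, a nuclear effector of Wnt signals and a pro-B cell factor, was lower in heavy-chain-negative resting cells, 267 against 605 CPM, but not in heavy-chain-positive resting ones, 213 against 172. Wnt10b was the only member of the Wnt list past 2-fold in the upward direction in any stratum.

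Other genes were, like Wnt10b, higher by 2-fold in every stratum. Gdpd3, a phospholipase of the glycerophosphodiesterase family, was at 222 CPM in IkB-deficient against 1.96 in aged heavy-chain-negative resting cells and 166 against 1.59 in heavy-chain-positive resting cells. Gdpd3 was found in a similar share of IkB-deficient NK or innate lymphoid-like cells (37.3%) and heavy-chain-negative resting B progenitors (33.9%), so its share there cannot be told apart from one common to all cells of that library. In the aged library the shares were 2.09% and 0.734%. Ehd3, of endosomal recycling, was at 144 against 20.7 CPM in heavy-chain-negative resting cells, Inf2, an actin-regulating formin, at 178 against 37.6, and Ppp1r21, of endosome sorting, at 416 against 41.2. The 38 genes higher in every stratum also held the interferon-inducible GTPase genes Gbp3 and Igtp, the inflammatory caspase gene Casp4, Cyba, which encodes a subunit of the phagocyte oxidase, Glo1, of methylglyoxal detoxification, and Gpr18, Grap, Fchsd2, Rapgef1, Shisa5, Prelid2 and Snrnp25.

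Further genes were among the 5 highest or 5 lowest of a stratum, several of them in other strata too. The log2 ratio of Fscn1 was 5.23 in heavy-chain-negative and 4.35 in heavy-chain-positive resting cells. Il4i1 was at 4.38 in resting and 3.35 in cycling heavy-chain-positive cells. Gm30948 was at -3.34, -2.01 and -2.22 in the first 3 strata, and Hist3h2ba at -2.24, -2.23 and -2.77 in the last 3. Fscn1, the actin-bundling fascin, was counted 4193 times in IkB-deficient and 3 times in aged heavy-chain-negative resting cells, 197 against 0.391 CPM, with a fold interval of 172 to 2439.6. Il9r, the interleukin-9 receptor, was counted 3292 and 2 times, 154 against 0.261 CPM with an interval of 164 to 4892, and was found in 46.7% and 0.113% of these cells and in 0.415% of the IkB-deficient reference cells. Il4i1, an amino acid oxidase induced by interleukin-4, was at 234 against 6.46 CPM in heavy-chain-positive resting cells, and Adm, the adrenomedullin gene, at 135 against 2.15. At the lower end of heavy-chain-negative resting cells stood the unnamed locus Gm30948 at 28.9 against 338 CPM, the multimerin gene Mmrn1 at 4.88 against 70.3 and Eps8l2, of actin remodelling, at 7.18 against 70.3. In these 3 cases the young library was close to the aged one, at 251, 57.5 and 54 CPM. Among the 5 lowest genes of heavy-chain-positive cycling cells were the histone genes Hist3h2ba at 5.78 against 68.5 CPM and Hist1h2ap at 46.2 against 163, although histone copies can share reads.

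Some extremes rested on very few cells. S100a9, a neutrophil gene, was at 51.8 CPM in IkB-deficient heavy-chain-negative cycling cells, but 1 cell held 99% of its UMIs. The 10 neutrophil or myeloid progenitor markers summed to 202 CPM there against 30.8 in the aged library and to 114 against 14.1 in heavy-chain-positive cycling cells. In the IkB-deficient heavy-chain-positive cycling cells Mpo, Prtn3 and Ctsg were the highest of them, at 46.5, 42.5 and 17.3 CPM. The 10 markers summed to under 5 CPM in both resting strata of both libraries. Jchain, the joining chain of secreted IgM and IgA, was at 537 CPM in aged heavy-chain-positive resting cells against 0.677 in IkB-deficient ones (2 UMIs), and 6 aged cells held 99% of its UMIs. In heavy-chain-positive cycling cells 2 aged cells held 99% of the Jchain UMIs.

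Of the genes lower in all strata, Crip1 (chromosome 12, 113152012 to 113153879), a LIM-domain protein of unclear function, had the largest ratio in heavy-chain-negative resting cells. It stood at 342 CPM in IkB-deficient, 1929 in aged and 2198 in young heavy-chain-negative resting cells, and at 596, 2302 and 3174 in the cycling ones. The aged level was 5.65-fold (interval 5.49 to 5.81) and 3.86-fold (interval 3.79 to 3.94) that of the IkB-deficient cells. Uchl1, a ubiquitin hydrolase, was at 27.7 against 101 CPM in heavy-chain-negative resting and 62.3 against 207 in heavy-chain-positive resting cells. Acp5, a phosphatase best known from osteoclasts, was at 14 against 41.2 CPM and the secreted-protein gene Oaf at 15.8 against 45.8, with 25.2 in the young library.

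The 12 lowest genes by their smallest ratio over the strata also held transcripts of the respiratory chain and the ribosome. The mitochondrially encoded mt-Nd3 was at 60.5 CPM in IkB-deficient, 130.3 in aged and 174 in young heavy-chain-negative resting cells, and Ndufa1, of the same respiratory complex, at 65.7, 127 and 154. The ribosomal protein genes Rpl37, Rps29, Rpl35 and Rps27 were lower by log2 ratios of -0.98, -0.99, -0.95 and -0.90 there. Rpl38 was lower as well, at 474 CPM against 939, with 1156 in the young library, and Rps28 at 638 against 1219.7 and 1541. For Rpl37, Rps29, Rps27, Rpl38 and Rps28 the young level was above the aged one in this stratum.

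The ribosomal list as a whole stayed near 0. Its 30 members had medians of 0.06, -0.04, 0.10 and -0.01, with 16, 15, 17 and 15 above 0 and 0, 3, 0 and 3 lower by 2-fold. The 28 oxidative phosphorylation genes had medians of -0.32, -0.44, -0.39 and -0.46, with 21, 22, 22 and 21 below 0 and 0, 0, 1 and 0 past 2-fold downward. The share of all measured genes above 0 was 46.1%, 61.2%, 47.6% and 58.9% in these strata. Cox7c, a small subunit of cytochrome oxidase with one of the largest ratios of the list, stood at 203 CPM in IkB-deficient, 332 in aged and 445 in young heavy-chain-negative resting cells. The 4 members of highest level there were split. The log2 ratio was 0.26 for Cox4i1 and 0.34 for Atp5b, but -0.46 for Uqcrh and -0.41 for Cox8a. Gapdh, a glycolytic gene with many pseudogene copies that can share reads, was higher in resting cells, 823 against 365 CPM without and 736 against 263 with a heavy chain, and Ldha was at 256 against 245 and 339 against 206. The glycolysis list had medians of 0.04, -0.02, 0.37 and 0.22.

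Among B-lineage transcription factors Ebf1 (chromosome 11, 44618100 to 45008096), which commits progenitors to the B lineage together with Pax5, had the clearest difference at a high level. It stood at 1511 CPM in IkB-deficient, 3739 in aged and 3994 in young heavy-chain-negative resting cells, and at 1382, 4052 and 4642 in heavy-chain-positive resting cells. The aged level was 2.48-fold (interval 2.44 to 2.51) and 2.93-fold (interval 2.84 to 3.03) that of IkB-deficient cells, and the log2 ratio was -0.60 and -0.66 in the cycling strata. Ebf1 was detected in 95.5% of IkB-deficient and 95.8% of aged heavy-chain-negative resting cells, and in 90.8% and 97.3% after thinning. Pax5 was at 148 against 125 CPM and Tcf3, which encodes E2A, at 1145 against 1063. The 24 listed factors, of which 23, 22, 23 and 22 were measured, had medians of -0.07, 0.07, -0.19 and -0.06.

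Members of the list past 2-fold numbered 2, 1, 2 and 2 over the strata, counting both directions. In stratum order they were Ebf1 and Lef1, then Spib, then Ebf1 and Bcl11a, then Bcl11a and Erg. Spib had a log2 ratio of 1.39 in heavy-chain-negative cycling cells and Erg of 1.16 in heavy-chain-positive cycling cells. Bcl11a, needed for early lymphoid development, was 2.95-fold (interval 2.65 to 3.3) and 3.02-fold (interval 2.7 to 3.38) higher in heavy-chain-positive resting and cycling cells. Under 2-fold, Irf4, which promotes light-chain rearrangement, was at 155 against 249 CPM in heavy-chain-positive resting cells, and its relative Irf8 at 581 against 338. Spi1, which encodes PU.1, was at 115 against 226 CPM in the same cells, also under 2-fold. Trib2, a pseudokinase gene outside the list, was at 170.1 against 16.4 CPM in heavy-chain-negative resting and 302 against 109 in heavy-chain-positive resting cells.

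Surrogate light chain genes differed by less than 2-fold in heavy-chain-negative cells and were higher in IkB-deficient heavy-chain-positive cells, past 2-fold in resting ones only. Igll1, which encodes lambda 5, was at 5218 against 4797 CPM in heavy-chain-negative resting cells and at 1959 against 763 in heavy-chain-positive resting ones, where the young level was 329.6. Vpreb1, its partner, was at 3840.3 against 3726 and 1505 against 565 CPM. In heavy-chain-positive cycling cells the log2 ratios of Igll1, Vpreb1 and Vpreb2 were 0.87, 0.997 and 0.73. Vpreb3, of the same list, was lower, at -0.55 in heavy-chain-positive resting and -0.47 in heavy-chain-positive cycling cells. Of heavy-chain-positive resting cells, 34.6% in the IkB-deficient library and 16.5% in the aged one had at least 2 UMIs over Igll1, Vpreb1 and Dntt. Cells with early-stage transcripts were thus the larger share of that stratum in the IkB-deficient library. Cd79a, which was used to choose the cells, was at 4302 against 4070.3 CPM in heavy-chain-negative resting cells.

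Of 10 recombination genes measured in heavy-chain-negative resting cells 6 were below 0 and 1, Xrcc6, passed 2-fold. Of all measured genes there, 46.1% were above 0. Rag1, the recombinase, was at 157 against 264 CPM in heavy-chain-negative resting and 125 against 219.7 in heavy-chain-positive resting cells. Dntt, which adds bases at the joins, was at 1239.8 against 2025 and 376 against 298 CPM, so its order turned between the strata. Xrcc6, which encodes Ku70 of end joining, was at 376 CPM in IkB-deficient, 887 in aged and 920.4 in young heavy-chain-negative resting cells, 2.36-fold (interval 2.29 to 2.44) higher in the aged library, and 2.56-fold (interval 2.39 to 2.74) higher in heavy-chain-positive resting cells. In heavy-chain-negative cycling cells it was at 187 against 207 CPM.

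Several surface markers of B cell stages were lower in IkB-deficient heavy-chain-positive resting cells. Il2ra, which encodes CD25, stood there at 78.5 CPM against 201 in aged and 216 in young cells, Cd2 at 67, 197 and 312, Cd22 at 13.2, 39.9 and 41.3, and Cd38 at 126, 319 and 399. These 4 were the members past 2-fold downward of 17 measured. Ms4a1, which encodes CD20, was higher there at 180.4 against 74.4 CPM, and Ly6d, an early B-lineage antigen, was 2.45-fold (interval 2.39 to 2.52) higher in heavy-chain-negative resting cells. The sphingosine receptor gene S1pr1, which guides exit from marrow, was at 17.6 against 73.6 CPM in heavy-chain-positive resting cells.

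Some ratios differed between heavy-chain-negative and heavy-chain-positive resting cells. Among genes measured in both resting strata, the log2 ratio of Samsn1, an adaptor that dampens B cell receptor signals, was 0.46 without and 2.39 with a heavy chain, with 96.1 against 14.3 CPM in the latter. Tmem176b, a membrane protein of antigen-presenting cells, moved from 1.05 to 2.95, and Srfbp1, an RNA-binding protein gene, from -1.10 to 1.04. For Srfbp1 the aged library stood apart in heavy-chain-negative resting cells, with 51.1 CPM in IkB-deficient, 115 in aged and 51.5 in young cells. Fcmr, the IgM Fc receptor, was 4.84-fold (interval 4.1 to 5.76) higher in heavy-chain-negative but 1.58-fold (interval 1.44 to 1.75) higher in heavy-chain-positive resting cells. Ttc7b, a scaffold of lipid kinases, was at 53 against 12.1 and 41 against 61.4 CPM.

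Cytokine-signal and survival genes held a few clear differences. The interleukin-7 receptor chain gene Il7r was at 344 against 315 CPM in heavy-chain-negative resting cells, whereas Il2rg, the common gamma chain that pairs with it, was 2.18-fold (interval 2.07 to 2.3) higher, and at least 2-fold higher in each stratum. Pim2, a survival kinase, was at 138 against 35.6 CPM. Ccnd2, a D cyclin, was at 296 CPM in IkB-deficient, 52.7 in aged and 18.2 in young heavy-chain-positive resting cells, while Ccnd3 was at 310.1 against 539.8. Bid, a pro-apoptotic member of the BCL2 family, was 5.16-fold (interval 4.62 to 5.78) higher in heavy-chain-negative resting cells, and Mcl1, an anti-apoptotic one, stood at 114 against 110.0 CPM.

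Immediate early and S100 genes as lists were lower than in the aged library in resting cells. The summed level of the S100 list in heavy-chain-negative resting cells was 1615 CPM in IkB-deficient, 2978 in aged and 2280.3 in young cells, so the young library lay between the others. Fos, an AP-1 subunit, was at 488 CPM in IkB-deficient, 976 in aged and 427 in young heavy-chain-negative resting cells, and at 633, 1295 and 414 in heavy-chain-positive resting ones. S100a6, a calcium-binding protein gene, was at 64.6, 233 and 105 CPM in heavy-chain-negative resting cells. Vim, the vimentin gene, was at 651, 1104 and 696. For Fos, S100a6 and Vim the IkB-deficient level was nearer to the young than to the aged one, and for S100a6 and Vim it was under both. Dusp1, an early phosphatase, went the other way, with 307, 130.5 and 50.9 CPM in heavy-chain-positive resting cells.

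The immediate early list had medians of -0.61, 0.08, -0.67 and -0.12 with 2, 0, 3 and 0 members lower by 2-fold, and the S100 list -0.76, -0.54, -0.68 and -0.43 with 2, 1, 1 and 0. The immediate early medians of both resting strata were not stable. That of heavy-chain-negative resting cells was under 0.5 in size in 6 alternatives, from -0.243 with aged cells limited to those with Y-linked UMIs only to -0.488 without cells of other-lineage markers, and that of heavy-chain-positive resting cells in 3, from -0.364 without an expression minimum to -0.494 without cells of mature B markers.

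Division genes were used to form the strata, so their levels are given as a description. In heavy-chain-positive cycling cells all 26 G2 and M phase genes had ratios below 0, with a median of -0.24, whereas in heavy-chain-negative cycling cells 14 of 26 were above 0 and the median was 0.01. Of all measured genes, 58.9% and 61.2% were above 0 in these strata in the same order. DNA replication genes, which were not used, had medians of 0.01 and -0.04 in the cycling strata. Histone deacetylases had medians of -0.04, -0.00, -0.09 and -0.12, in which Hdac5, a class II deacetylase, stood out at 23.6 CPM in IkB-deficient against 102 in aged and 102 in young heavy-chain-negative resting cells. Of cells with no heavy chain, 13.3% of IkB-deficient, 7.39% of aged and 8.48% of young resting cells had a productive light-chain contig. These shares include cells without any contig, and 98.1%, 75.9% and 70.0% of the same groups appeared in the V(D)J table. They therefore also depend on contig recovery. Igkc, the kappa constant gene, was at 1112 CPM in IkB-deficient, 115 in aged and 188 in young cells of this stratum.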

How the data were processed

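Bone-marrow B cell progenitors of 3 groups (pools of 2 mice) had been profiled for 5' transcripts and V(D)J contigs. The deposited matrices hold whole counts of UMIs for each gene and barcode. Cell Ranger and mm10 come from the submitters' processing notes, and per the file headers the matrices were written by software version 3.0.1; the options used are not given in the sources used here. The deposited contig tables give counts of UMIs per contig. The IkB-deficient, aged and young matrices held 78266890, 50701225 and 54698092 UMIs over 9772, 8046 and 9647 barcodes.

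Cells were chosen and divided as described above, and UMIs were summed per library and stratum with numpy 2.4.6 and scipy 1.17.1. Log2 ratios had a pseudocount of 5 CPM. Genes with a mean of at least 20 CPM over both libraries were measured, a ratio of at least 2-fold was called, and a list median of at least 0.5 in size was called. Fold intervals are exact conditional binomial and share intervals exact Clopper-Pearson, both at 95%. No count model was run, since each side is 1 library. Doublets were scored with Scrublet (scanpy 1.11.5) and left in, except in an alternative without the top-scoring cells, a share that grew with the number of cells in a library. Ratios and intervals were checked on simulated data.

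The genes named were the targeted genes, the 12 highest and 12 lowest with 1 sign in all strata, the 5 highest and 5 lowest of each stratum, the 5 at each end of the difference between resting strata, and of each list and stratum the 4 of highest level and 3 of largest ratio. Ciita, H2-DMa, H2-DMb1, Irf1, Irf4, Pax5, Nfkbid, Cflar, Igkc and the remaining genes past 2-fold in all strata fall outside this rule and, like the promoter motifs, were chosen after their values were seen. Members and lists were chosen with earlier results of these data known.

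Promoter windows and gene positions come from RefSeq tables of GRCm38.p6, matched by symbol. Alternatives changed the pseudocount, expression minimum, scaling, weight of cells, depth, doublets, heavy-chain, Cd79a and cell filters, the aged cells by sex transcripts, and cells of other lineages or stages.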

Additional observations from a re-analysis of the deposited data

How the results depend on the processing

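Each comparison rests on 1 library a side, so no alternative can show the spread between mice, and depth limits genes near the minimum of 20 CPM, above all in the 317 IkB-deficient heavy-chain-positive cycling cells. Of 19 alternatives, those that moved a count of genes by over 1.5 times were mainly the expression minimum and the pseudocount. In the order higher then lower, the counts without an expression minimum were 226 and 180 in heavy-chain-negative resting cells, 129 and 50 in heavy-chain-negative cycling cells, 329 and 150 in heavy-chain-positive resting cells, and 197 and 62 in heavy-chain-positive cycling cells. With a minimum of 100 CPM, where fewer genes are tested, they were 54 and 23, 24 and 15, 59 and 37, and 25 and 16. With a pseudocount of 20 CPM, which shrinks ratios of low genes, the lower counts were 50, 18, 56 and 15, and the higher counts were 113 in heavy-chain-positive resting and 56 in heavy-chain-positive cycling cells. Lower genes numbered 47 in heavy-chain-negative cycling cells against aged cells with Xist only, and 65 in heavy-chain-positive cycling cells after thinning; for these the cause was not tested. No change of scaling moved the split of higher against lower genes by over 10 percentage points.

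After thinning to 2000 UMIs, which lowers the number of division-gene UMIs by construction, the shares of the 4 strata were 57.8%, 20.5%, 10.2% and 2.86% in the IkB-deficient, 27.9%, 7.70%, 40.6% and 16.1% in the aged and 13.5%, 3.67%, 56.5% and 18.4% in the young library.

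Of 109 list medians 28 were at least 0.5 in size, 12 of these were under 0.5 in at least 1 alternative, and 1 changed sign. That one was the NF-kB inhibitor median in heavy-chain-negative cycling cells (-0.52 over 4 genes), which was 0.138 without an expression minimum and 0.214 without the Cd79a minimum; the cause was not tested. The subunit median in heavy-chain-positive cycling cells was 0.397 after thinning, and the interferon median there was 0.246 without an expression minimum. Of 249 named gene and stratum pairs past 2-fold, 84 were under 2-fold in at least 1 alternative and 2 changed sign. Cd9, a surface tetraspanin gene, was at -0.065 in heavy-chain-positive resting cells limited to those with Igll1, Vpreb1 or Dntt UMIs. Jchain in heavy-chain-positive cycling cells was at 0.469 after thinning and 0.281 against aged cells with Xist only. No paired analysis was possible because each group is 1 library.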
